A study of Mus musculus with 18 samples.

Results

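The mouse Zfp genes encode C2H2 zinc finger proteins, many of them transcription factors, and their RNA was measured in sorted regulatory T cells with overexpression or loss of the microRNAs miR-23, miR-24 and miR-27. Members were taken by symbol, as Zfp followed by a number and at most 1 letter, without Zfp36, and by a mean of at least 1 RPKM (a read count divided by transcript length and library depth) over all 18 libraries. Of 353 such rows among the 23953 of the deposited table, 261 met the level. They were thus chosen by their mean RPKM over the 18 libraries, in which every group counts alike. Just inside that level stood Zfp69, Zfp459 and Zfp428 at 1.07, 1.03 and 1.0 RPKM, and just outside it Zfp558, Zfp97 and Zfp516 at 0.974, 0.973 and 0.936 RPKM, while 12 family rows were at 0 in every library.

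RNA was read from FACS-sorted CD4+CD25hi Treg cells of C57BL/6 mice, 3 libraries for each of 6 genotypes. The miR-23 Tg, miR-24 Tg and miR-27 Tg mice overexpressed 1 microRNA in T cells, cluster Tg mice overexpressed the whole miR-23 cluster, DKO mice lacked both clusters, miR-23a and miR-23b, in T cells, and WT mice were the control. The labels write Tg after DKO and WT too, and the series title names CD4cre, a Cre recombinase that acts in T cells and not in Treg cells alone. They state neither the age of the mice nor whether each library of a group is a different mouse; a p-value here therefore reflects only how much these libraries vary, which may be technical. Each comparison was fitted with limma on log2(RPKM + 0.5), and a gene was called at a Benjamini-Hochberg adjusted p under 0.05 over all 11520 genes tested. On that scale the change of a low gene is understated.

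The Zfp members fall broadly into a class with an N-terminal KRAB domain and a class without it. A KRAB domain recruits TRIM28 (also called KAP1), which in turn brings SETDB1 and other silencing factors to the DNA bound by the finger array, and many KRAB zinc finger proteins bind endogenous retroviruses or imprinted loci. Members without the domain include promoter-binding activators and repressors, ubiquitin ligases, and proteins of ribosomes, splicing and the spindle. A microRNA pairs through its seed, here bases 2 to 8, with complementary sites in messenger RNA, mostly in the 3′ UTR and less often in coding sequence, and lowers the level or translation of that RNA.

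The 3 overexpressed microRNAs have different seeds, which are in capitals in the mature sequences from RefSeq (GRCm38.p6, + strand, 5′ to 3′), at chr8:84208563-84208583, chr8:84208875-84208896 and chr8:84208727-84208747.
mmu-miR-23a-3p: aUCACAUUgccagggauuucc
mmu-miR-24-3p: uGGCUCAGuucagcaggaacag
mmu-miR-27a-3p: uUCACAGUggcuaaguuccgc

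A match to the miR-23 seed, AATGTGA on the sense strand of the transcript, is frequent in the coding sequence of the family and mostly holds the cysteine codon TGT. In 260 members with a GENCODE M21 coding sequence there were 357 such matches in 125 members, which is 0.712 per kb of coding sequence against 0.0932 per kb in the tested genes that are not members. Of these matches, 320 (89.6%) read TGT as a codon, and 273 (76.5%) lay on the first or the second cysteine codon of a C2H2 finger found in the translated sequence. The windows below are 25 bases of coding sequence (GRCm38, in the direction of the transcript) around the first match in the 4 members that were called lower in miR-23 Tg cells, then in Zfp808 and Zfp51, which hold the most matches, with the match in capitals. They lie at chr17:22375415-22375439 (+), chr12:116060213-116060237 (+), chr13:67442968-67442992 (-), chr2:150238353-150238377 (+), chr13:62171443-62171467 (+) and chr17:21463936-21463960 (+).
Zfp758: aatgtagtgAATGTGAcaaatgctt
Zfp386: aaccttacaAATGTGAagagtgtgg
Zfp874a: aaccatacaAATGTGAagagtgtga
Zfp937: aaccctatgAATGTGAgcaatgtgg
Zfp808: tatgtaatgAATGTGAtgaagtctt
Zfp51: aatgcaaagAATGTGAaaaatcatt

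The match was found in the coding sequence of 48.08% of members, against 14% of all tested genes, and in 63.27% of members with a KRAB motif, against 28.32% of members without one. The other two seeds were nearer to the tested genes at large. A miR-24 match lay in 18.08% of members and 21.22% of tested genes, and a miR-27 match in 25.38% of members and 17.97% of tested genes. In the 3′ UTR, 29.37% of 252 members held a miR-23 match, against 14.8% of 10396 tested genes. A match is a run of letters and not a measured site of binding.

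The members were expressed at modest levels, from 1.0 to 104 RPKM with a median of 6.88 RPKM, against a median of 15 RPKM for all tested genes. A KRAB A-box motif, at least 9 of 12 conserved residues at fixed spacing in any coding transcript, was found in 147 members, and these had a median of 12 fingers and a median level of 4.73 RPKM. The 113 members without it had a median of 8 fingers and 11.6 RPKM. Zfp207 (BuGZ), a partner of BUB3 at the spindle, was the most abundant member, at 104 RPKM over all libraries. Then came Zfp740 at 48.6 RPKM, the pluripotency regulator Zfp281 at 39.1 RPKM, Zfp598, a ubiquitin ligase that marks collided ribosomes, at 38.0 RPKM, and Zfp91, a ubiquitin ligase of the NF-kB pathway, at 37.9 RPKM. Only 1 of the 8 most abundant members, Zfp445 at 36.5 RPKM, carried the KRAB motif; it guards genomic imprints.

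The libraries held an estimated 20340000 to 31480000 reads each, with 10710 to 11121 genes at 1 RPKM or more, and no member was at 0 in any library. Mir23a stood at 31554, 31028 and 38276 RPKM in miR-23 Tg and at 22900, 17106 and 11691 RPKM in cluster Tg, against 61.8, 155 and 0 RPKM in WT, and it was listed at 0 in all 3 DKO libraries. Mir24-2 reached 7999 to 22325 RPKM in miR-24 Tg and Mir27a 50014 to 79108 RPKM in miR-27 Tg, with at most 50.3 and 346.7 RPKM in WT. These are reads of total RNA libraries over the microRNA genes and not a direct measure of the mature microRNAs. Foxp3, the defining factor of Treg cells, lay between 197 and 348 RPKM over all 18 libraries. The 6 Treg cell and T cell genes (Foxp3, Il2ra, Ctla4, Ikzf2, Cd4 and Cd3e) summed to 1534 to 1559 RPKM in miR-23 Tg, 1522 to 1877 in miR-24 Tg, 1487 to 1848 in miR-27 Tg, 1610 to 1921 in cluster Tg and 1710 to 1796 in DKO, against 1582 to 1756 RPKM in WT. Of the marker lists of other cells, 10 B cell genes summed to 179 to 265 RPKM in miR-23 Tg libraries, to 170 to 567 in miR-24 Tg, to 344 to 574 in miR-27 Tg, to 187 to 313 in cluster Tg and to 120 to 168 in DKO libraries, against 101 to 148 RPKM in WT libraries. The sums of 9 myeloid genes were 109 to 158 RPKM in miR-23 Tg, 134 to 296 RPKM in miR-24 Tg, 101 to 201 in miR-27 Tg, 120 to 145 in cluster Tg and 78.1 to 108 in DKO, against 88.2 to 94.6 RPKM in WT. The 5 plasma cell genes summed to 65.6 to 84.1 RPKM in miR-23 Tg, 63.7 to 92.7 in miR-24 Tg, 78.0 to 168 in miR-27 Tg, 66.9 to 72.7 in cluster Tg and 57.3 to 70.2 in DKO, against 52.9 to 59.4 RPKM in WT. The 4 NK cell genes were low, at 6.50 to 9.09 RPKM in miR-23 Tg, 5.64 to 10.5 in miR-24 Tg, 8.46 to 25 in miR-27 Tg, 3.65 to 17.3 in cluster Tg and 2.50 to 5.39 in DKO, against 1.90 to 4.08 RPKM in WT, and both CD8 T cell genes together stayed at 12.8 to 30.8 RPKM over all libraries. For 12 proliferation genes the sums were 359 to 382 RPKM in miR-23 Tg, 215 to 327 RPKM in miR-24 Tg, 342 to 725 in miR-27 Tg, 338 to 387 in cluster Tg and 159 to 261 in DKO, against 164 to 237 RPKM in WT. In bulk RNA, fewer cells of a type and less RNA per cell cannot be told apart, and the part these marker levels have in the results below was not tested. None of these lists had a gene at 0 throughout a group, except 2 of the 9 myeloid genes in DKO.

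Cells of miR-23 Tg mice, set against WT, show the family under overexpression of miR-23 alone. Most members stood lower, and the median shift was larger in the KRAB class. The median log2 fold change was -0.28 for the 147 members with a KRAB motif, of which 134 were below 0, and -0.04 for the 113 members without it, of which 70 were below 0, beside 0.01 for all tested genes. By library, the KRAB members had a median of -0.34, -0.25 and -0.21 in the miR-23 Tg libraries, on the log2 scale relative to the WT mean, against -0.05, -0.02 and 0.06 in the WT libraries. All 3 miR-23 Tg medians were below all 3 WT medians. The KRAB members stood below WT in miR-27 Tg and cluster Tg too, with medians of -0.12 and -0.13 and 107 of 147 below 0 in each. Members without the motif had medians of -0.09 and -0.08 there, with 67 and 77 of 113 below 0. The KRAB medians in miR-24 Tg and DKO were 0.05 and -0.01. In 105 of 261 members (40.2%), 85 of them with the KRAB motif, every miR-23 Tg library was lower than every WT library, which held for 10.8% of all tested genes, and in 9 members (3.45%) every one was higher, beside 14.1% of tested genes. Some Treg cell genes stood lower in the same libraries. Foxp3 was at 243, 215 and 249 RPKM in miR-23 Tg, against 334, 287 and 336 RPKM in WT (log2 fold change -0.43, limma adjusted p = 0.255). Ikzf2, the gene of the Treg factor Helios, was at 66.8, 58.7 and 83.8 RPKM in miR-23 Tg, against 96.6, 101 and 111 RPKM in WT (log2 fold change -0.57, limma adjusted p = 0.118), and Il2ra, the interleukin-2 receptor alpha chain, was at 163, 155 and 183 RPKM in miR-23 Tg, against 208, 203 and 254 RPKM in WT (log2 fold change -0.41, limma adjusted p = 0.257). The groups overlapped in none of the 3, and none passed the test. Ctla4 and Cd4 went the other way, with log2 fold changes of 0.10 and 0.03, and neither was called. Over the 6 Treg cell and T cell genes the median was -0.23, with 4 of 6 below 0, and the B cell, plasma cell, myeloid, NK cell and proliferation sums were all higher in every miR-23 Tg library than in every WT library; the part these levels have in the members' values was not tested.

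**Figure D1:**
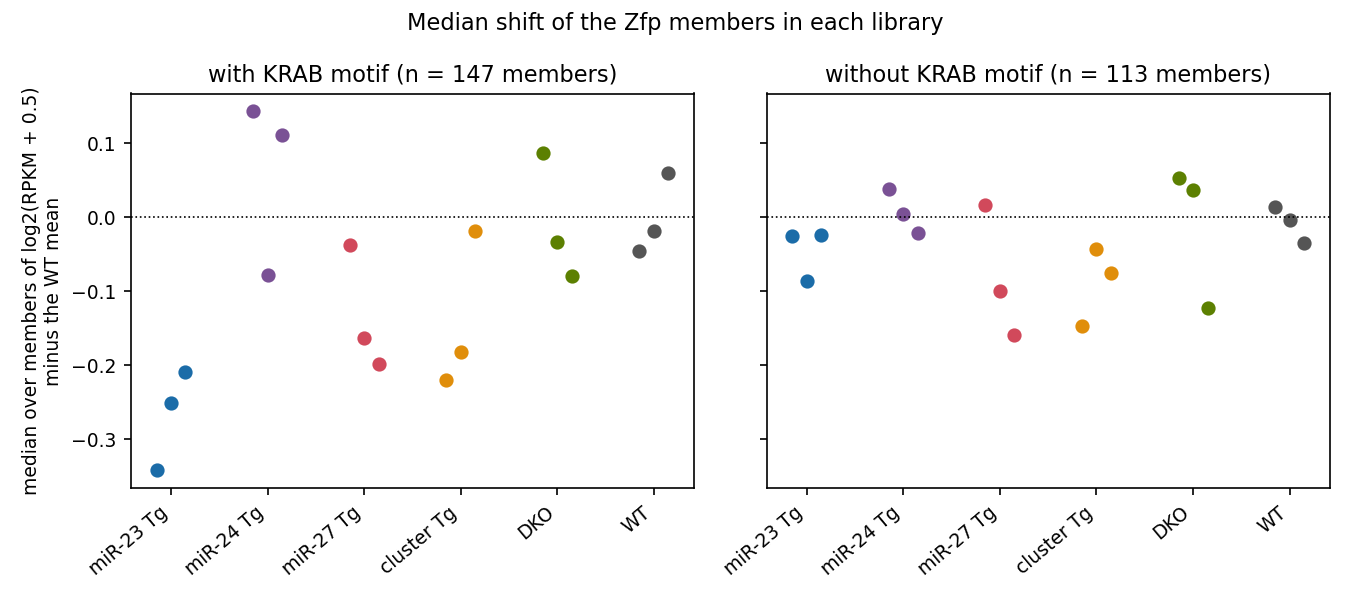
Median over the Zfp members of log2(RPKM + 0.5) minus the mean of the 3 WT libraries (y axis, log2 units), 1 point per library, for members with (left) and without (right) the KRAB motif. The miR-23 Tg libraries sit at -0.34, -0.25 and -0.21 among KRAB members, below the WT libraries, with cluster Tg library 1 among them at -0.22 and miR-27 Tg library 3 just above at -0.20, and between -0.09 and -0.02 among members without the motif.

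Few single members passed the test in this comparison. No member was called higher and 4 were called lower, all with the KRAB motif, where 0.356% of all tested genes were called in either direction, 0.156% higher and 0.2% lower. The unadjusted limma p was under 0.05 for 80 of the 261 members and for 1567 of the 11520 genes. With any 1 of the 6 libraries left out, none of the 4 remained called, so these calls need all 3 libraries of both groups. The loss was general: over all tested genes, 18 called higher and 23 lower became at most 3 higher and at most 3 lower.

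Zfp758 (chr17:22361453-22377281, + strand), with 12 fingers and 9 coding matches to the miR-23 seed, was at 4.70, 5.22 and 5.49 RPKM in miR-23 Tg, against 7.40, 8.04 and 8.62 RPKM in WT. The groups did not overlap, and it fell by 0.60 on the log2 scale (SE 0.10, limma adjusted p = 0.0203). Zfp386 (chr12:116047724-116063360, + strand), with 2 coding matches and 1 in the 3′ UTR, was at 5.59, 6.56 and 6.34 RPKM in miR-23 Tg, against 8.96, 9.30 and 9.0 RPKM in WT. It was lower in all 3 miR-23 Tg libraries, with a log2 fold change of -0.53 (SE 0.09, limma adjusted p = 0.0203). Zfp874a (chr13:67424549-67451624, - strand), with 3 coding and 2 UTR matches, was at 3.55, 4.15 and 3.49 RPKM in miR-23 Tg, against 5.54, 6.11 and 7.55 RPKM in WT, a log2 fold change of -0.70 (SE 0.14, limma adjusted p = 0.0493). Zfp937 (chr2:150218073-150240725, + strand) is a low member that shares 28.2% of its 50-base stretches with another gene, mostly Zfp442, so reads could be split between them. It was at 0.971, 1.15 and 1.38 RPKM in miR-23 Tg, against 2.19, 2.65 and 2.17 RPKM in WT, and its log2 fold change was -0.77 (SE 0.15, limma adjusted p = 0.0493).

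**Figure D2:**
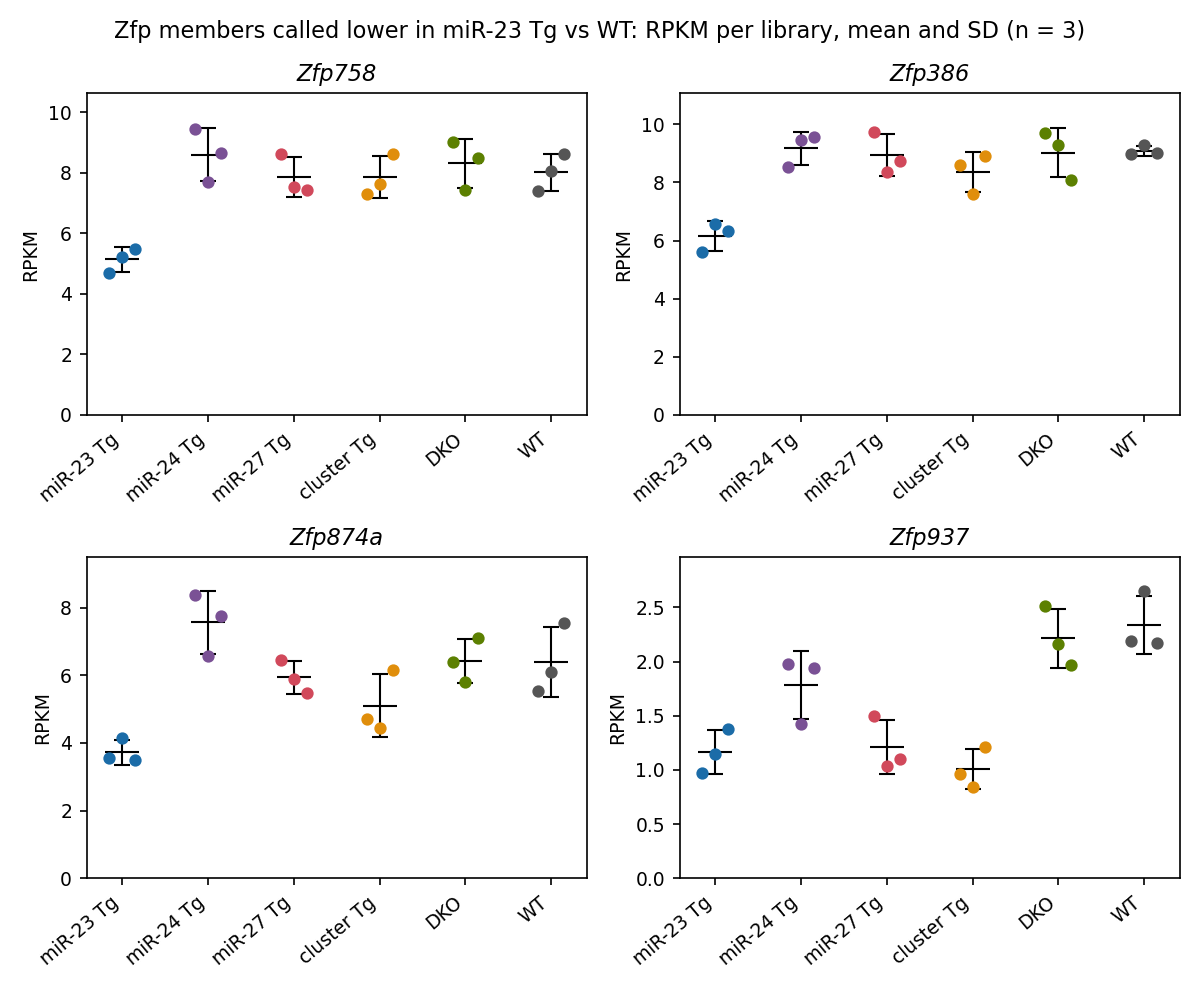
RPKM (y axis, from 0) of the 4 members called lower in miR-23 Tg against WT, in all 6 genotypes. Points are libraries, the bar is the mean and whiskers are the SD of 3 libraries; Zfp758, Zfp386 and Zfp874a are lowest in miR-23 Tg cells, while Zfp937 is also low in miR-27 Tg and cluster Tg cells.

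In the other direction, the 3 members with the smallest p did not pass. Zfp367 averaged 8.54 ± 0.29 RPKM in miR-23 Tg and 5.66 ± 1.1 RPKM in WT cells (SD, n = 3 each; limma adjusted p = 0.151), and Zfp954 and Zfp821 had log2 fold changes of 0.22 and 0.28. Zfp760, with 9 coding matches, had the most negative value of the 5 members richest in matches, at 0.793, 0.920 and 0.766 RPKM in miR-23 Tg, against 1.62, 1.38 and 2.45 RPKM in WT. Its groups did not overlap, but the log2 fold change of -0.78 (SE 0.30) had a limma adjusted p of 0.271. Zfp808, which has 17 coding matches and shares 40.4% of its 50-base stretches with another gene, had a log2 fold change of -0.27, Zfp51 with 10 matches -0.31 and Zfp273 with 8 matches -0.42, all without passing. Among these 5 members the value did not follow the number of matches.

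Across members, however, the median log2 fold change in miR-23 Tg was lower with more coding matches. It was -0.09 for the 135 members with none, -0.17 for the 51 with 1, -0.30 for the 25 with 2, -0.29 for the 18 with 3 and -0.36 for the 31 with 4 or more. Tested genes outside the family had 0.02 for the 9066 genes with none and -0.02, -0.05, -0.15 and -0.22 for those with 1, 2, 3 and 4 or more, the last being 18 genes. For the 74 members with 2 or more matches, the library medians were -0.42, -0.30 and -0.28 in miR-23 Tg, against -0.06, -0.01 and 0.06 in WT, and the groups did not overlap. No such order appeared in DKO against WT. There the member medians were -0.02, -0.01, -0.02, -0.02 and 0.01 for 0, 1, 2, 3 and 4 or more matches. In miR-24 Tg against WT, medians by miR-23 match ran the other way. They were -0.002 for the 99 members with no match in coding sequence or 3′ UTR and 0.08 for the 45 with both. Outside the family they were -0.004 for 7584 such genes and 0.10 for 232. The cause was not tested.

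**Figure D3:**
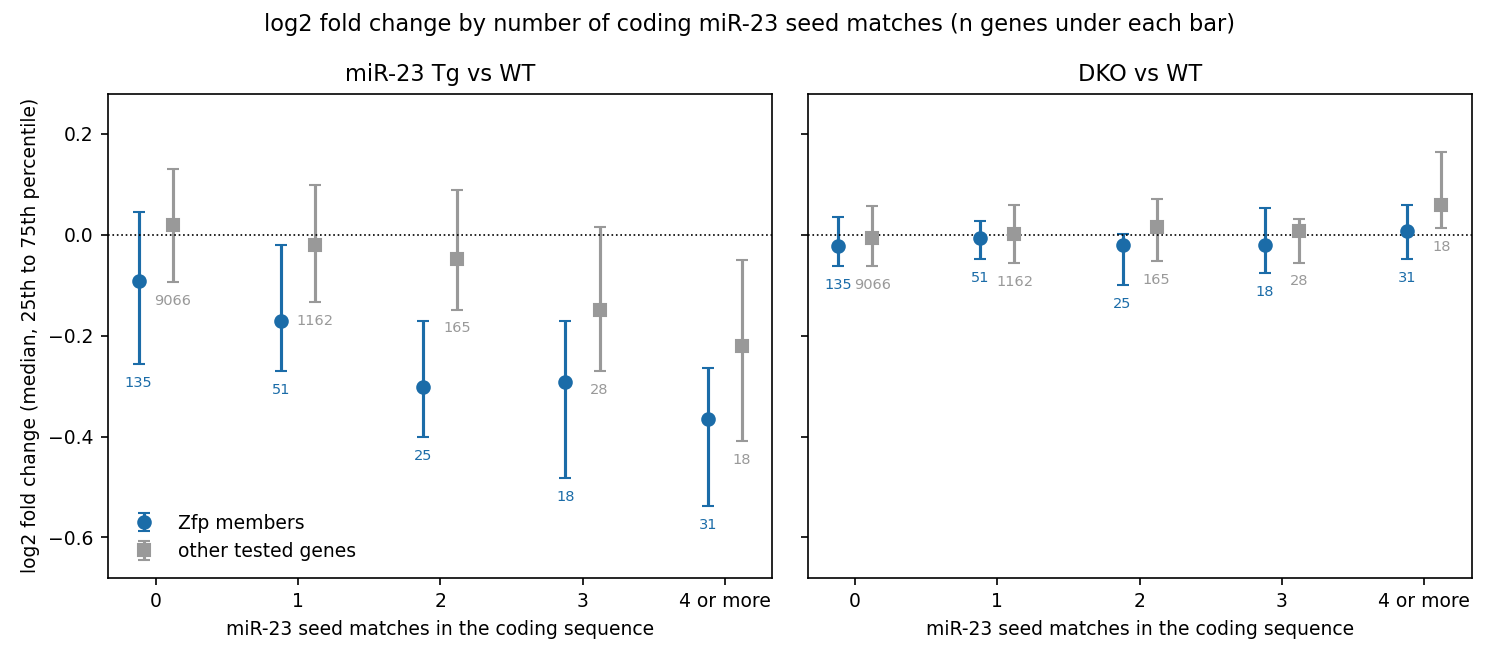
Median log2 fold change (y axis; whiskers from the 25th to the 75th percentile) by number of miR-23 seed matches in the coding sequence (x axis), for Zfp members (circles) and other tested genes (squares), with the number of genes under each. In miR-23 Tg against WT the member median is -0.36 with 4 or more matches and -0.09 with none; in DKO against WT all member medians are between -0.02 and 0.01.

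Matches are more frequent in the KRAB class, so both were read together. Among KRAB members, the median was -0.22 for the 37 with no miR-23 match in coding sequence or 3′ UTR, -0.28 for the 52 with coding matches only, -0.31 for the 14 with UTR matches only and -0.31 for the 41 with both. The KRAB members with no match thus stood low as well, with library medians of -0.21, -0.22 and -0.18 in miR-23 Tg, against -0.05, -0.01 and 0.06 in WT. Among members without the KRAB motif the medians were 0.01 for the 62 with no match, -0.08 for the 27 with coding matches, -0.11 for the 15 with UTR matches and -0.24 for the 4 with both. By UTR matches alone, the member median was -0.13 for the 178 with none, -0.26 for the 54 with 1, -0.40 for the 12 with 2, -0.31 for the 5 with 3 and -0.41 for the 3 with 4 or more. These are descriptions of one set of 6 libraries and carry no test.

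Many KRAB members lie in chromosome clusters. Of the 261 members, 66 lie on chromosome 7, 34 on chromosome 17 and 27 on chromosome 13, and 111 fall in 12 blocks of at least 5 members with gaps of at most 500 kb. These blocks hold 88 of the 147 KRAB members, whose median in miR-23 Tg against WT was -0.28, as was that of the 59 KRAB members outside them. In the block at chr13:67038596-67827002 all 19 members carry the KRAB motif and all 19 were below 0 in miR-23 Tg against WT, with a median of -0.51 and a range from -0.70 to -0.29; 14 of them hold 2 or more coding matches and 1, Zfp874a, was called. Some members of this chromosome 13 block share 50-base stretches with other genes, Zfp708 all of them, Zfp58 52.2%, Zfp429 26.1%, Zfp85 25.2% and Zfp273 24.3%. Their reads could be split between genes, so the 19 values may not be separate readings. In the block at chr17:21008903-23564238, 14 of 16 members hold 2 or more coding matches and the median was -0.31. A second block on the same chromosome, chr17:32765496-33631779, holds 1 such member among 12 and had a median of -0.27, with all 12 below 0. The 6 members at chr7:4915217-5053723, none with a KRAB motif, had a median of -0.07. Some blocks of both classes moved little. At chr6:47835661-48623227, where 5 of 9 members carry the motif and none holds 2 coding matches, the median was 0.05 with 2 of 9 below 0. At chr7:24081924-24515682, with 4 KRAB members of 6, the median was -0.07 with 3 of 6 below 0, and at chr7:127233061-127885996, with 4 of 8, it was -0.09 with 7 of 8 below 0. The other 5 blocks had medians from -0.30 to -0.19. Among them, chr7:12415153-12985714, also with 4 KRAB members of 6, had a median of -0.19 with all 6 below 0. The block at chr7:29768552-30169750, with 11 of 14, had -0.20 with 12 of 14 below 0.

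Set directly against miR-23 Tg, miR-27 Tg cells had higher levels of many KRAB members, though the median of that class against WT was -0.12 in miR-27 Tg. In this comparison 44 members were called higher and 21 lower, where 23.4% of all tested genes were called in either direction, 12.4% higher and 10.9% lower. KRAB members made up 30 of the 44 and 10 of the 21. In 76 members every miR-27 Tg library was higher than every miR-23 Tg library, beside 21.6% of tested genes, and in 41 every one was lower, beside 20.6%. The libraries of miR-23 Tg enter this comparison too, so it is not a separate reading of their level. Zfp758 was at 8.62, 7.52 and 7.43 RPKM in miR-27 Tg, against 4.70, 5.22 and 5.49 RPKM in miR-23 Tg, and rose by 0.57 on the log2 scale (limma adjusted p = 0.00139). Zfp760 rose most, at 2.77, 2.48 and 2.88 RPKM in miR-27 Tg against 0.793, 0.920 and 0.766 RPKM in miR-23 Tg, a 2.42-fold difference in RPKM + 0.5 (limma adjusted p = 0.00847). Zfp41, Zfp3 and Zfp11 followed, with rises of 1.05, 0.98 and 0.85 on the log2 scale. Zfp445, the imprint guard, averaged 38.2 ± 3.9 RPKM in miR-27 Tg and 29.7 ± 2.7 RPKM in miR-23 Tg (SD, n = 3 each; limma adjusted p = 0.0206). The retroviral silencer Zfp809, which acts on murine leukaemia virus in mouse stem cells, was at 19, 19.2 and 16.7 RPKM in miR-27 Tg, against 11.5, 11.3 and 13.9 RPKM in miR-23 Tg (log2 fold change 0.57, limma adjusted p = 0.0116). Zfp622, a factor of 60S ribosome maturation, went the other way, at 25.8, 26.5 and 21.9 RPKM in miR-27 Tg, against 46.6, 40.9 and 42.4 RPKM in miR-23 Tg, and fell by 0.80 (limma adjusted p = 0.00172). The groups overlapped in neither Zfp809 nor Zfp622. Zfp281, Zfp956 and Zfp821 fell by 0.78, 0.60 and 0.56. Without miR-23 Tg library 1 the count called higher was 24 and without library 2 it was 29, and the count called lower was 11 without miR-23 Tg library 2, 13 without miR-27 Tg library 2 and 12 without miR-27 Tg library 3 and miR-24 Tg library 1 together.

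In miR-24 Tg cells few members were called, and those called lower were of the class without KRAB. Against WT, 3 members were called higher and 7 lower, where 8.98% of all tested genes were called in either direction, 4.6% higher and 4.38% lower. All 7 that fell lacked the KRAB motif. They are 6.2% of the 113 members without it, beside the 4.38% of tested genes called lower. Zfp608, a repressor of Rag genes in mouse thymocytes, was at 1.92, 1.81 and 1.37 RPKM in miR-24 Tg, against 3.39, 3.75 and 3.62 RPKM in WT, with no overlap and a log2 fold change of -0.90 (SE 0.21, limma adjusted p = 0.0158). Zfp580 was lower by 1.01 on the log2 scale (SE 0.24, limma adjusted p = 0.0169), at 0.686, 1.07 and 1.53 RPKM in miR-24 Tg against 3.41, 2.0 and 2.69 RPKM in WT. Zfp219, a partner of SOX9 in cartilage, was at 15.8, 12.8 and 13.2 RPKM in miR-24 Tg, against 23.6, 19.3 and 18.8 RPKM in WT (log2 fold change -0.54, limma adjusted p = 0.0197). Zfp524, Zfp414, Zfp787 and Zfp513 fell by 0.41, 0.40, 0.36 and 0.36, and of these Zfp524 and Zfp414 share 46.0% and 25% of their 50-base stretches with other genes.

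Of the members that rose, Zfp3 was at 4.29, 4.05 and 3.91 RPKM in miR-24 Tg, against 2.40, 2.26 and 3.14 RPKM in WT, with a log2 fold change of 0.57 (limma adjusted p = 0.0369). Zfp644, a partner of the histone methyltransferases G9a and GLP, rose by 0.49 without overlap, and Zfp719 rose by 0.50 with groups that overlapped. When miR-24 Tg library 1 was left out, whose B cell and myeloid sums were the highest of the group, 0 members were called higher and 3 lower. The counts were 5 and 4 without miR-24 Tg library 2, 2 and 2 without library 3, 0 and 1 without WT library 1, 0 and 5 without WT library 2 and 2 and 4 without WT library 3. The KRAB members had a median of 0.05 in miR-24 Tg, with library medians of 0.14, -0.08 and 0.11, against -0.05, -0.02 and 0.06 in WT, and the groups overlapped. By group mean, miR-24 Tg was nevertheless the highest of the 6 genotypes for 75 of the 147 KRAB members and miR-23 Tg the lowest for 87.

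In miR-27 Tg cells more members passed the test, in a comparison where much of the transcriptome moved. Against WT, 12 members were called higher and 35 lower, where 28.6% of all tested genes were called in either direction, 15.9% higher and 12.7% lower. The share of members called higher was 4.598% and the share called lower 13.41%, so the share that rose was below that of the tested genes at large and the share that fell was near it. All 47 had groups that did not overlap; over all members, 23 were higher and 71 lower in every miR-27 Tg library, beside 22.8% and 20.1% of tested genes. The proliferation genes were all 12 called higher in the same comparison, and the B cell genes all 9 that were tested.

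Zfp367 rose most, at 10.6, 15.6 and 14.6 RPKM in miR-27 Tg, against 4.91, 5.14 and 6.92 RPKM in WT, a 2.28-fold difference in RPKM + 0.5 (log2 fold change 1.19, SE 0.17, limma adjusted p = 0.000262). Zfp41 was at 8.78, 9.14 and 9.15 RPKM in miR-27 Tg, against 3.20, 4.41 and 4.0 RPKM in WT, and was 2.19-fold higher in RPKM + 0.5 (limma adjusted p = 0.000699). Zfp282, the mouse counterpart of a human protein that binds the long terminal repeat of HTLV-1, was at 6.45, 7.02 and 6.34 RPKM in miR-27 Tg, against 4.18, 4.32 and 4.13 RPKM in WT (log2 fold change 0.59, limma adjusted p = 0.000365). The groups stood well apart in these 3 members. Zfp3, Zfp599, Zfp280b, Zfp11 and Zfp365, the last a DISC1-binding protein of the brain, rose by 0.76, 0.66, 0.60, 0.53 and 0.53 on the log2 scale. Zfp41 and Zfp280b each hold 2 miR-27 seed matches in the 3′ UTR.

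Zfp358 fell most in miR-27 Tg, to 2.75, 3.09 and 3.67 RPKM, against 6.13, 6.37 and 5.93 RPKM in WT (log2 fold change -0.86, SE 0.14, limma adjusted p = 0.000517). Zfp661, with 8 fingers and a KRAB motif, was at 1.16, 1.24 and 1.06 RPKM in miR-27 Tg, against 2.13, 2.11 and 2.77 RPKM in WT (log2 fold change -0.78, limma adjusted p = 0.00323). Zfp281, which restrains pluripotency genes in mouse embryonic stem cells, was at 30.5, 29.0 and 23.1 RPKM in miR-27 Tg, against 49.6, 50.9 and 40.6 RPKM in WT (log2 fold change -0.77, limma adjusted p = 0.00941). None of these had a value in common between the groups, and none holds a miR-27 match in the 3′ UTR. Zfp937, Zfp658, Zfp28, Zfp652 and Zfp420 fell by 0.74, 0.71, 0.63, 0.59 and 0.58, and of these Zfp28, Zfp652 and Zfp420 hold 1 such match each. In the 3′ UTR, 20.63% of members held a miR-27 match, beside 15.74% of all tested genes. By coding matches to the miR-27 seed the median was -0.12 for the 194 members with none, -0.12 for the 49 with 1 and -0.11 for the 12 with 2. In all, 17 members held 2 or more, and the few with more than 2 are left out here. Leaving out miR-27 Tg library 3 or WT library 1 left 23 members called lower, while leaving out miR-27 Tg library 1 gave 45.

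**Figure D4:**
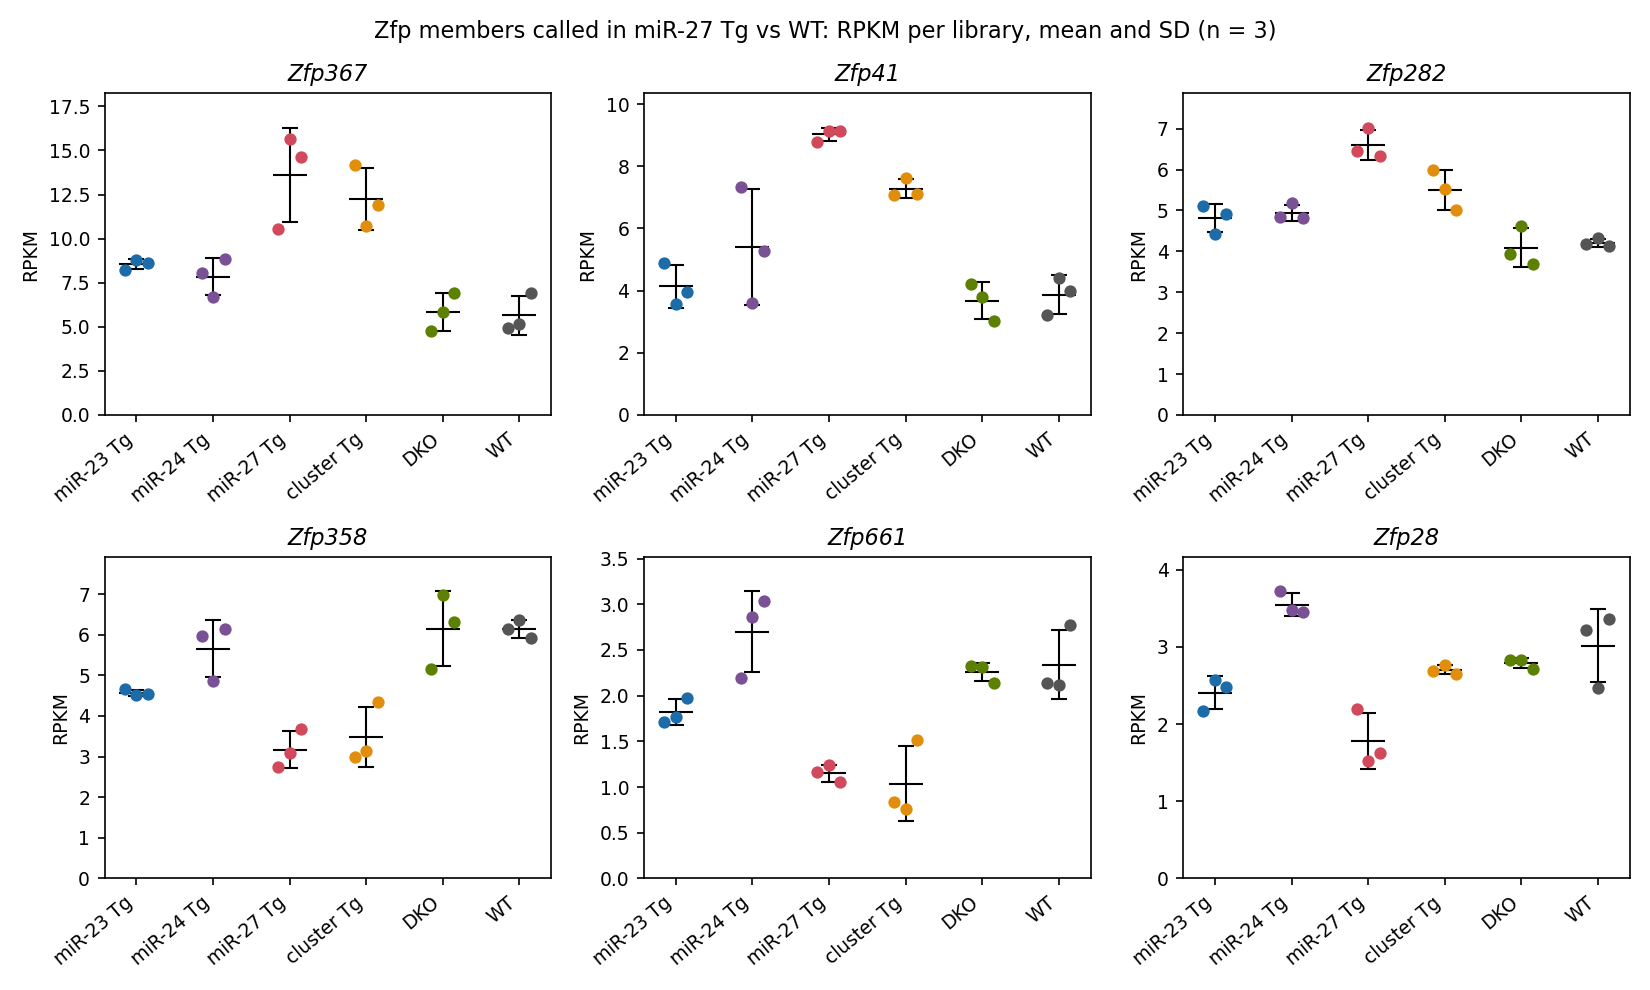
RPKM (y axis, from 0) in all 6 genotypes of 3 members called higher (top) and 3 called lower (bottom) in miR-27 Tg against WT. Points are libraries, the bar is the mean and whiskers are the SD of 3 libraries; Zfp367 and Zfp41 are highest in miR-27 Tg and next highest in cluster Tg, and Zfp28 is low in miR-27 Tg but not called in cluster Tg.

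In cluster Tg cells 41 members passed the test. Against WT, 11 members were called higher and 30 lower, where 24.4% of all tested genes were called in either direction, 13.8% higher and 10.5% lower. In 19 members every cluster Tg library was higher than every WT library and in 64 lower, beside 22.6% and 17.8% of tested genes. Zfp367 was at 14.2, 10.7 and 11.9 RPKM in cluster Tg, against 4.91, 5.14 and 6.92 RPKM in WT, and rose by 1.06 (limma adjusted p = 0.000704). Zfp365 rose by 0.86 and Zfp41 by 0.84, and Zfp52, Zfp719, Zfp11, Zfp61 and Zfp282 rose by 0.49, 0.49, 0.37, 0.36 and 0.35. Zfp91 averaged 45.1 ± 5.6 RPKM in cluster Tg and 35.4 ± 1.9 RPKM in WT (SD, n = 3 each; limma adjusted p = 0.0195).

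Zfp661 fell to 0.839, 0.760 and 1.52 RPKM in cluster Tg, against 2.13, 2.11 and 2.77 RPKM in WT (log2 fold change -0.91, limma adjusted p = 0.00147). Zfp652, whose human counterpart represses genes together with CBFA2T3, was at 5.46, 6.47 and 8.41 RPKM in cluster Tg, against 12.1, 14.1 and 12.5 RPKM in WT, and fell by 0.90 (limma adjusted p = 0.00285). Zfp937 fell by 0.91, Zfp90 by 0.77, Zfp358 by 0.75, Zfp420 by 0.66, Zfp784 by 0.57 and Zfp871 by 0.53. Exons of Zfp90 and Zfp784 overlap exons on the opposite strand over 79.5% and 94.8% of their length, and since the sources do not say that strand was used in counting, those reads cannot be told apart. Without cluster Tg library 1 the counts were 4 higher and 10 lower, without cluster Tg library 2 they were 10 and 16, without WT library 3 they were 8 and 13, without WT library 1 they were 8 and 14, and without WT library 2 they were 7 and 20.

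Cluster Tg cells, which also overexpressed Mir23a, showed no steady order of the members by miR-23 matches. The medians against WT were -0.12, -0.06, -0.11, -0.18 and -0.13 for members with 0, 1, 2, 3 and 4 or more coding matches. For the 74 members with 2 or more matches, the library medians were -0.25, -0.21 and 0.00 in cluster Tg libraries 1, 2 and 3, against -0.06, -0.01 and 0.06 in WT. The Mir23a gene, whose RPKM is not a direct measure of mature miR-23, stood at 22900, 17106 and 11691 RPKM in those cluster Tg libraries. The relation of the 2 measures was not tested.

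**Figure D5:**
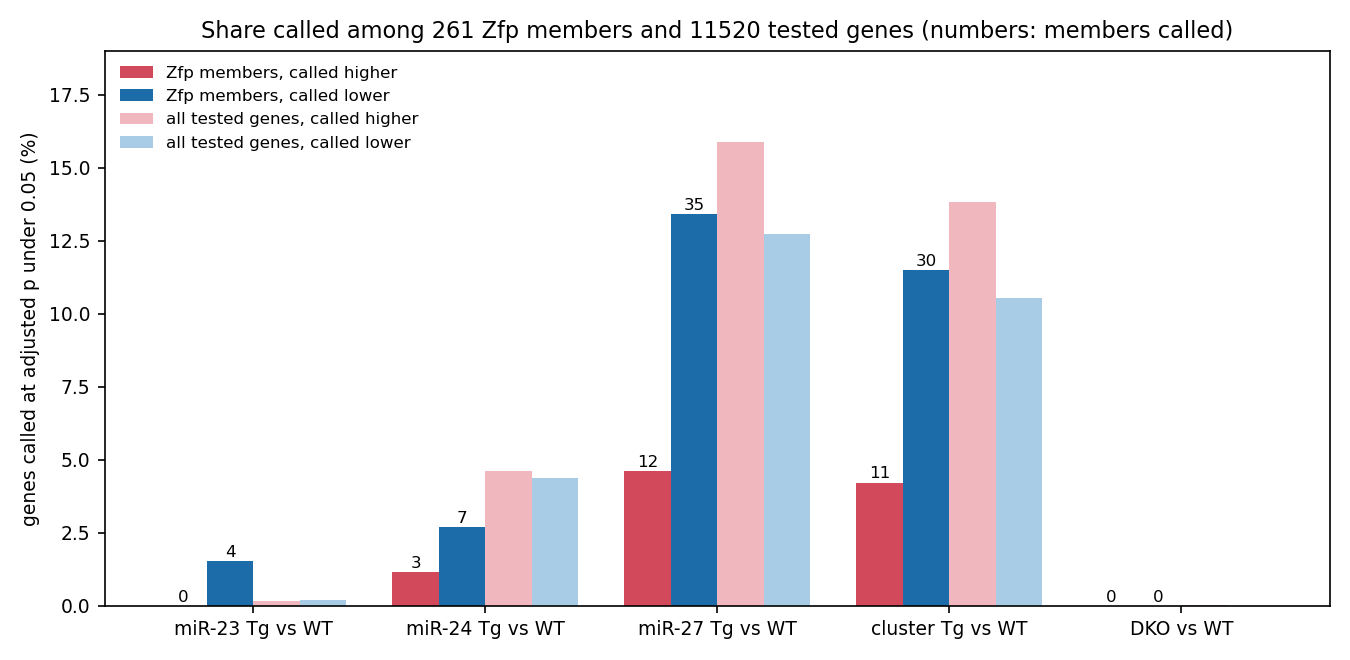
Share of genes called at an adjusted p under 0.05 (y axis, %) in each comparison with WT, for the 261 Zfp members (dark bars, with the number of members called) and all 11520 tested genes (light bars), higher and lower apart. The members' share called higher is below that of all tested genes in miR-24 Tg, miR-27 Tg and cluster Tg, and the share called lower in miR-23 Tg is 1.533% among members.

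Against miR-24 Tg, miR-27 Tg cells had 11 members called higher and 43 lower, where 24% of all tested genes were called in either direction, 13.2% higher and 10.9% lower, and KRAB members made up 2 of the 11 and 28 of the 43. Zfp608 was at 4.64, 5.85 and 3.80 RPKM in miR-27 Tg, against 1.92, 1.81 and 1.37 RPKM in miR-24 Tg, and rose by 1.25 (limma adjusted p = 0.000994). Zfp367, Zfp41 and Zfp574 rose by 0.74, 0.74 and 0.57. Zfp661, Zfp868, Zfp28 and Zfp90 fell by 0.94, 0.85, 0.84 and 0.78, and in Zfp868 the third miR-24 Tg library, at 9.80 RPKM, lay far below the other two, at 19.6 and 19.8 RPKM. Leaving out both libraries with the highest B cell sum of their group, the first of miR-24 Tg and the third of miR-27 Tg, gave 13 members called higher and 12 lower. The count called higher was 7 without miR-24 Tg library 2 or miR-27 Tg library 2, and the count called lower was 26 without miR-24 Tg library 3, 25 without miR-27 Tg library 2 and 23 without miR-27 Tg library 3.

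Cluster Tg differed from miR-27 Tg in 7 members, 5 higher and 2 lower, where 6.85% of all tested genes were called in either direction, 3.5% higher and 3.35% lower. Zfp28 was at 2.69, 2.76 and 2.65 RPKM in cluster Tg, against 2.19, 1.52 and 1.63 RPKM in miR-27 Tg (log2 fold change 0.50, limma adjusted p = 0.0240). Zfp658, Zfp810 and Zfp949 rose by 0.46, 0.41 and 0.39, and Zfp68 was the fifth to rise. Zfp808, the member with 17 coding matches to the miR-23 seed, was at 0.512, 0.810 and 0.887 RPKM in cluster Tg, against 1.55, 1.72 and 1.39 RPKM in miR-27 Tg, and fell by 0.74 (limma adjusted p = 0.0231). Zfp280b fell by 0.54. The count called higher was 10, 0 and 1 without miR-27 Tg library 1, 2 and 3, and 1 and 2 without cluster Tg library 1 and 2. The count called lower was 1 without miR-27 Tg library 2 or 3, 0 without cluster Tg library 1 and 4 without cluster Tg library 3.

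With both clusters deleted, no difference in a member was detectable with 3 libraries a group. In DKO against WT no member was called by limma and none had an unadjusted p under 0.05 (254 of all tested genes had one), where 0.0174% of all tested genes were called in either direction. The median log2 fold change was -0.02, the quartiles were -0.06 and 0.04, and every DKO library was higher than every WT library in 4 members and lower in 5, beside 3.32% and 2.73% of tested genes. Zfp839 had the smallest p of the higher members, at 3.17, 3.53 and 3.42 RPKM in DKO against 2.78, 3.04 and 2.54 RPKM in WT. Zfp935 and Zfp808 followed with log2 fold changes of 0.19 and 0.29, and Zfp59, Zfp623 and Zfp830 had -0.18 each. Zfp935 shares all of its 50-base stretches with other annotated genes, so its value cannot be assigned to it alone. The 4 members called lower in miR-23 Tg had log2 fold changes from -0.06 to 0.05 in DKO, with Zfp758 at 9.02, 7.44 and 8.49 RPKM in DKO against 7.40, 8.04 and 8.62 RPKM in WT.

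Of 16 members listed for well known roles, 3 were called against WT in miR-27 Tg, all lower (18.8%, where 28.6% of all tested genes were called), 1 in cluster Tg, higher (6.25%, beside 24.4%), and none in miR-23 Tg, miR-24 Tg or DKO. The 3 were Zfp281, Zfp326 and Zfp622, and the 1 in cluster Tg was Zfp91. Zfp335, needed for thymocyte maturation in mice, averaged 26.5 ± 1.3 RPKM in miR-23 Tg and 24.8 ± 4.4 RPKM in WT (SD, n = 3 each), and no comparison with WT passed for it, for Zfp148, a factor of GC-rich promoters, or for Zfp318, which permits IgD expression in mouse B cells. The same held for Zfp292, Zfp706 and Zfp106. Zfp326, of a complex that couples splicing to elongation, was at 12.9, 14.2 and 14.5 RPKM in miR-27 Tg, against 17.2, 17 and 19.5 RPKM in WT, and fell by 0.35 (limma adjusted p = 0.0285). Zfp622 fell by 0.51 in the same comparison (limma adjusted p = 0.0173). Zfp207 and Zfp598 passed in no comparison with WT, with log2 fold changes from 0.05 to 0.16 and from -0.18 to 0.17. Of the silencers of repeats and imprints, Zfp932, which represses retroviral elements in mouse embryonic stem cells and shares 55.5% of its 50-base stretches with a neighbour, had log2 fold changes from -0.36 to -0.05 against WT, and none passed for it, for Zfp809 or for Zfp445.

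Of 26 cofactor genes of TRIM28 silencing, heterochromatin and DNA methylation, none was called against WT in miR-23 Tg, miR-24 Tg or DKO cells, where 3, 2 and 0 had an unadjusted limma p under 0.05. Trim28 was at 122, 118 and 102 RPKM in miR-23 Tg, against 102, 95.5 and 95.7 RPKM in WT, and was called in no comparison with WT. In miR-27 Tg 7 of the 26 were called higher (26.9%, where 15.9% of all tested genes were called higher) and none lower (12.7% of tested genes), a share of 26.9% in either direction near the 28.6% of tested genes. Among the 7 were the maintenance methyltransferase Dnmt1, at 51.2, 78.2 and 77.7 RPKM in miR-27 Tg against 32.7, 37.4 and 40.3 RPKM in WT, its partner Uhrf1 (log2 fold change 1.47) and the heterochromatin protein gene Cbx5 (0.71). In cluster Tg 3 fell, Dnmt3b by 0.60, Dnmt3a by 0.34 and Ehmt1 by 0.25, which is 11.5% of the list beside 10.5% of all tested genes, and none rose, beside 13.8%.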

How the data were processed

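The authors deposited 1 table of RPKM values for 18 libraries of total RNA, prepared with the Illumina TruSeq RNA kit per the labels' protocols; STAR 2.2.0c, HOMER and mm10 (GRCm38) are named in the submitters' processing notes, with no counting settings. Raw counts were not used here. Depth was estimated from the smallest steps of RPKM in single-transcript genes.

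A gene was tested if 3 or more libraries reached 1 RPKM, 4 rows with a repeated symbol aside. All 261 members passed that filter. One limma model (limma 3.58.1, R 4.3.3) of log2(RPKM + 0.5) over the 6 groups, with a mean-variance trend, gave 8 comparisons, each with Benjamini-Hochberg adjustment over all genes tested, two-sided; it was tested on simulated data. A single gene in 3 against 3 libraries could not go below an exact p of 0.10. Coding sequences, 3′ UTRs and exons came from GENCODE M21 (GRCm38), using 1 transcript per gene. The KRAB motif and fingers were searched in translated coding sequences, since no protein table was used here as first planned. The motif can miss KRAB genes whose annotated transcripts lack the box.

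Members and lists were chosen with earlier results of these data known. Named members were, for each comparison with WT, the 8 largest called rises and falls whose groups did not overlap, or the 3 of smallest p where fewer than 3 passed; for direct comparisons the 4 largest each way; the 8 highest, those nearest the level of 1 RPKM, a panel of known roles, and the 5 with the most coding matches. Zfp719 in miR-24 Tg, Zfp68, Zfp91 in cluster Tg, and Zfp445, Zfp758 and Zfp809 in the direct comparison were named after their values were seen. Alternatives were pseudocounts of 0.1 and 1, testing without the filter, scaling by median ratios, a fit of the compared groups only, a replicate block and libraries left out.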

Additional observations from a re-analysis of the deposited data

How the results depend on the processing

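No result reversed under any alternative run. Of the counts of called members, 141 values stayed within 1.5 times and 61 moved further; all 101 medians stayed within 1 SD, while 791 single-member values kept their side of the threshold and 168 lost their call. Of the alternative values of the coding-match median, 13 were rated the same and 4 as moved. With a pseudocount of 1, without the filter or with only the 2 compared groups, 2 members were lower in miR-23 Tg against WT in place of 4. For miR-24 Tg, the 3 higher became 1 without the filter and 0 with only the 2 groups, and the 7 lower became 4 and 2. Only the 2 groups gave 4 higher and 10 lower for cluster Tg against WT, 3 and 11 for miR-27 Tg against miR-24 Tg, and 0 and 0 for cluster Tg against miR-27 Tg. Without the libraries of highest B cell and myeloid markers, the first of miR-24 Tg and the third of miR-27 Tg, miR-24 Tg had 0 higher and 3 lower, miR-27 Tg against miR-23 Tg 12 lower, miR-27 Tg against miR-24 Tg 12 lower, and cluster Tg against miR-27 Tg 1 higher and 0 lower. The cause was not tested.

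Leaving out 1 replicate gave, higher and lower, 0 and 0 in miR-23 Tg, 0 to 5 and 1 to 5 in miR-24 Tg, 8 to 11 and 23 to 45 in miR-27 Tg, 4 to 11 and 10 to 39 in cluster Tg and 0 and 0 in DKO, all against WT. It gave 24 to 36 and 11 to 25 for miR-27 Tg against miR-23 Tg, 7 to 14 and 23 to 53 for miR-27 Tg against miR-24 Tg, and 0 to 10 and 0 to 4 for cluster Tg against miR-27 Tg. The median of members with 2 or more coding miR-23 matches in miR-23 Tg, -0.32, ranged from -0.36 to -0.28; the same measure was -0.12 (7 bases) and 0.023 (6 bases) for the miR-24 seed in miR-24 Tg, and -0.10 and -0.11 for the miR-27 seed in miR-27 Tg, each against WT. Deviations of libraries with equal numbers had correlations from -0.17 to 0.19 (45 pairs, 6 over 0.1). With 3 libraries a group, this cannot show whether equal numbers pair samples. With the numbers as a replicate block, 6 members were higher in miR-24 Tg in place of 3. Over all tested genes, the block gave 38 higher and 38 lower in miR-23 Tg against WT, in place of 18 and 23. In DKO against WT it gave 1 and 0, in place of 2 and 0. Depth limits low members most.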

Other observations

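Related zinc finger genes outside the Zfp symbols give a further reading of the same libraries. Of 25 other rows with a KRAB motif and at least 2 fingers, 24 were below 0 in miR-23 Tg against WT, with a median log2 fold change of -0.31, and 2 were called lower (8%, beside 0.2% of all tested genes) and none higher by limma, where 12 had an unadjusted p under 0.05. The same 25 had medians of -0.02 under miR-27, -0.08 under the cluster and 0.01 in DKO, all against WT. The 16 Zkscan and Zscan genes, whose SCAN domain mediates pairing between zinc finger proteins, had medians of -0.11 in miR-23 Tg and -0.17 both in miR-27 Tg and under the whole cluster, with 0, 5 and 2 called lower and none called higher. The 5 are 31.2% of the list beside 12.7% of all tested genes, the 2 are 12.5% beside 10.5%, and in miR-24 Tg 1 was called lower, 6.25% beside 4.38%.

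Zbtb genes, which join a BTB domain to zinc fingers and include regulators of lymphocyte fate, were described beside the Zfp members in miR-27 Tg. Of 37 tested, 6 were called higher (16.2%, beside 15.9% of all tested genes) and 3 lower (8.11%, beside 12.7%) in miR-27 Tg against WT, shares near or below those of tested genes, with a median of 0.10, beside a median of -0.12 for the Zfp members. In miR-23 Tg 1 of the 37 was called lower (2.70%, beside 0.2%) and none higher, with a median of -0.11. These lists are described by count and median, and their difference from the Zfp members was not tested.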
